A study of Mus musculus with 4 samples.

Results

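The cytosolic ribosomal protein genes were examined in mouse fibroblasts with and without a short pulse of hydrogen peroxide. Members were chosen by the gene name printed beside each array probe: *Rpl* or *Rps* followed by a number, with at most the letters a, l, x, y or al after it, and *Rpsa*, *Rplp0*, *Rplp1* and *Rplp2*. This gave 82 of the 30175 gene names on the array, of which 50 encode proteins of the large subunit and 32 proteins of the small subunit. The rule used names only, although it was set with earlier results of these data known. Each gene was represented by its brightest probe, and 80 of the 82 were well above background on all 4 arrays. The exceptions, *Rpl3l* and *Rpl10l*, were not well above background on any array.

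The cytosolic ribosome carries out protein synthesis in the cytoplasm, and its small subunit reads the mRNA while its large subunit joins the amino acids. Ribosomal protein mRNAs are among the most abundant in growing cells, and their products are needed in equal numbers, so the genes are usually expressed at matched levels. Their mRNAs start with a run of pyrimidines, called the 5′ terminal oligopyrimidine (TOP) motif, through which the mTOR pathway and the RNA-binding protein Larp1 control their translation. Free ribosomal proteins can also bind Mdm2, the inhibitor of p53, when ribosome assembly is disturbed.

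The cells were NIH-3T3:Per2-Luc fibroblasts, an established mouse line in which the promoter of the clock gene *Per2* drives luciferase. The cOS-pulse (critical oxidative stress) was 5 mM H2O2 for 10 min, and RNA was taken 4 h, 20 h and 32 h later. Control cells received 0 mM H2O2 and a change of medium, and their array carries the 4 h label, so no control matched in time was used for 20 h and 32 h. Each of the 4 conditions was hybridised to 1 one-colour array, all on 1 slide, so there were no replicates, no test was possible, and each comparison compares 2 arrays rather than 2 conditions.

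The arrays carried 39429 probes, of which 52.7% to 59.1% were well above background, and no spot was saturated. All 10 fibroblast markers were well above background on every array. Of the other markers, 1 of 5 epithelial (*Krt8*), 3 of 5 immune (*Cd68*, *Cd3e* and *Itgam*, but not *Ptprc*), 2 of 4 endothelial, 0 of 4 muscle and 2 of 3 neuronal genes were. The 10 fibroblast markers were all below the control at 4 h, with a median log2 ratio of -0.34. At 20 h and 32 h their medians were -0.69 and -0.45, with 8 and 9 of the 10 below. Their summed signal was 482 to 589 times the 75th percentile of the array. The 21 markers of other cell types summed to 41.7 on the control array and to 62.5, 26.0 and 26.8 at 4 h, 20 h and 32 h on that scale, and the part of either list in the values below was not tested. In bulk RNA, fewer cells with a transcript and less of it per cell cannot be told apart. Signals are given as log2 units after subtracting their own array's 75th percentile over all probes. Differences between arrays are log2 ratios, for which the scanner software's spot error came to 0.20 (the spot error of both arrays combined), a value that leaves out variation between cultures. It was the same for every measured member, so a count of members whose ratio it exceeds is a count of ratios below this 1 value in size.

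The start of these genes is shown because the pyrimidine run lies there. RefSeq promoter sequences (GRCm38.p6) were held for 61 of the 82 members. Between 25 bases before and 50 bases after the annotated start, on the gene's strand, CTCTTT was found in 31.1% of these members and in 3.30% of all 27025 promoters. In the same window CTTTTC was found in 14.8% of the members and 3.08% of all promoters, CCTTTC in 24.6% and 3.53%, and CTTCCT in 24.6% and 6.44%. These 4 motifs can overlap each other. At least 1 of them was present in 43 of the 61 members, or 70.5%, against 14.6% of all promoters and 14.0% of the 8721 promoters of genes that were well above background on all arrays. The stretches below run from 60 bases before to 20 bases after the start, 5′ to 3′ on the gene's strand, at chr4:86857348-86857427 (minus strand) for *Rps6*, chr14:18270967-18271046 (minus) for *Rpl15*, chr3:90213629-90213708 (minus) for *Rps27*, chr4:152325666-152325745 (plus) for *Rpl22* and chr9:66946026-66946105 (plus) for *Rps27l*. Capitals mark a pyrimidine match in that window or, in *Rps27l*, the core CCGGAAG of the ETS factors.
Rps6: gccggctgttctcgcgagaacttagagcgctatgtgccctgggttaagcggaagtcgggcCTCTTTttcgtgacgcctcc
Rpl15: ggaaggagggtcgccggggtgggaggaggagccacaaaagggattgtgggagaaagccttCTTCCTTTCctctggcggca
Rps27: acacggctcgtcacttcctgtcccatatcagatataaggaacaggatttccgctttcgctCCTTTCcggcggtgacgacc
Rpl22: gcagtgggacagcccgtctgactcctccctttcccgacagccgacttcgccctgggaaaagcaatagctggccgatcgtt
Rps27l: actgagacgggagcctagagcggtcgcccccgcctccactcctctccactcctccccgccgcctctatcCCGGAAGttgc

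*Rps6*, *Rpl15* and *Rps27* held a pyrimidine match within a few bases of the start. *Rpl22* and *Rps27l* had no such match in the part of the window shown, which ends 20 bases after the start. The ETS core CCGGAAG was present on either strand of the whole promoter, 250 bases before to 50 after the start, in 41.0% of the members, 9.93% of all promoters and 19.7% of those of detected genes. CCCGCCC, the core bound by Sp1, was in 44.3% of the members against 27.9% of all promoters and 50.5% of those of detected genes. AAGATGG (YY1) was in 14.8% of the members and TATAAA (the TATA box) in 9.84%, beside 7.28% and 15.7% of all promoters and 8.47% and 9.19% of those of detected genes. A match is a description of the letters and not evidence of binding.

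At 4 h after the cOS-pulse, the 80 measured members differed from the control by nearly the same amount. Their median log2 ratio was 0.41 with the 75th percentile scaling, with a standard deviation of 0.078 among the 80, while all 15806 measured genes had a median of 0.17 and a standard deviation of 0.78. All 80 lay above the control, as did 60.5% of all genes, although the median of the members became 0.0097 after quantile normalisation and -0.0083 after cyclic loess. The interquartile range of the members was 0.094, against 0.84 over all genes. No member was at least 2-fold higher, against 8.25% of all genes, and none was 2-fold lower, against 8.14%. No member was below the control with this scaling, where 39.5% of all genes were. The 1 member at least 1.5-fold higher was *Rps27l*, where 21.1% of all genes passed that fold. The large subunit had a median of 0.40 (48 genes) and the small subunit one of 0.42 (32 genes), a gap far below the spot error of a single gene. The spot error exceeded the ratio at 4 h in 1 of the 80, *Rps15*.

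**Figure D1:**
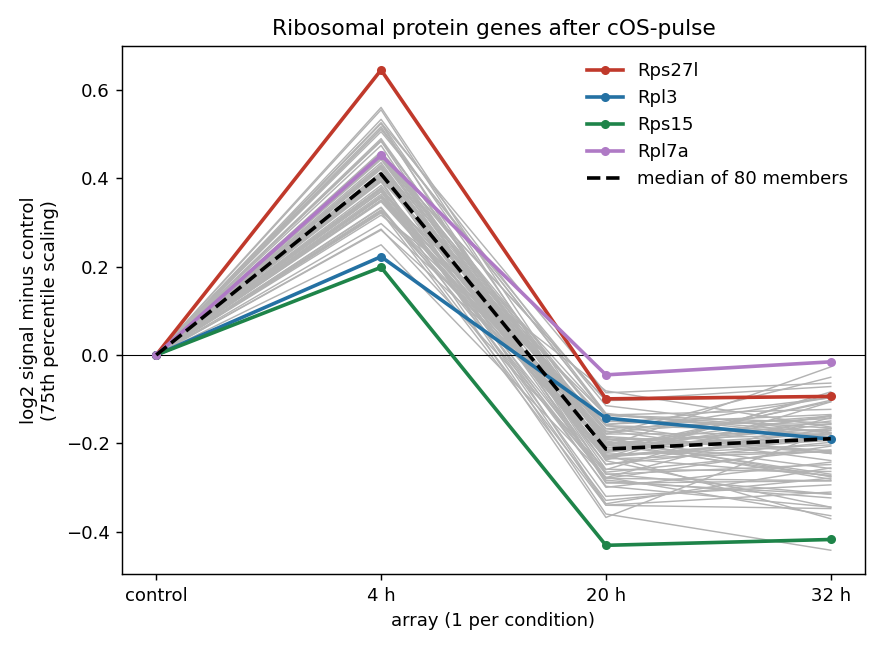
Log2 signal of each of the 80 measured ribosomal protein genes minus its value on the control array (y axis), on the 4 arrays (x axis, 1 array per condition). Each grey line is a gene, 4 genes are coloured, and the dashed line is the median of 0, 0.41, -0.21 and -0.19. All 80 lines peak at 4 h with this 75th percentile scaling, whereas the median at 4 h is -0.0083 after cyclic loess.

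**Figure D2:**
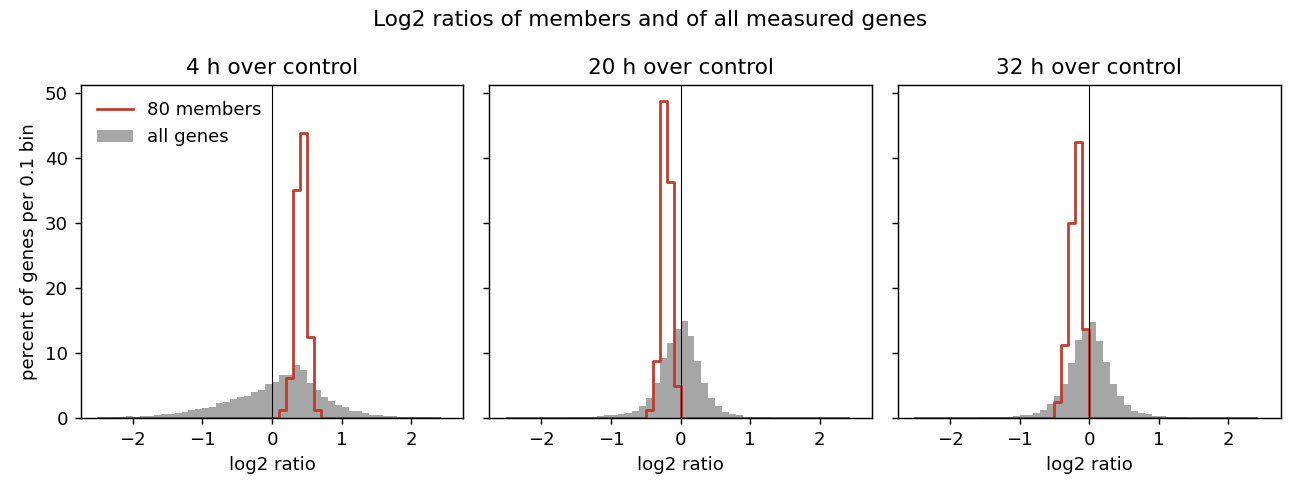
Percent of genes (y axis) in each bin of 0.1 of the log2 ratio to the control (x axis) for the 80 members (red line) and all measured genes (grey bars), in 3 panels by time. The members lie in a narrow band inside the distribution of all genes, with a standard deviation of 0.078 against 0.78 at 4 h. The place of the band on the x axis moves with the scaling, and its median at 4 h turns to -0.0083 after cyclic loess.

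The level of the band therefore depended on the scaling between arrays, while its width varied less. The 4 h median of the members was 0.29 when the 75th percentile was taken over probes detected on all arrays, 0.13 with no scaling, 0.049 with median scaling and 0.011 with scaling to 8 spike-in probes. The standard deviation among members stayed between 0.077 and 0.078 under these scalings and quantile normalisation, and was 0.10 after cyclic loess. Under every scaling that shifts an array by a constant, the members lay 0.24 above the median of all genes. Quantile normalisation left 0.023 of that distance, and cyclic loess, an alternative added after seeing the data, left 0.00058. Both adjust the ratio separately at each signal level. On the control array, 1039 probes (2.64%) were at or above the signal of the dimmest measured member, and 155 of them were probes of the members themselves.

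**Figure D3:**
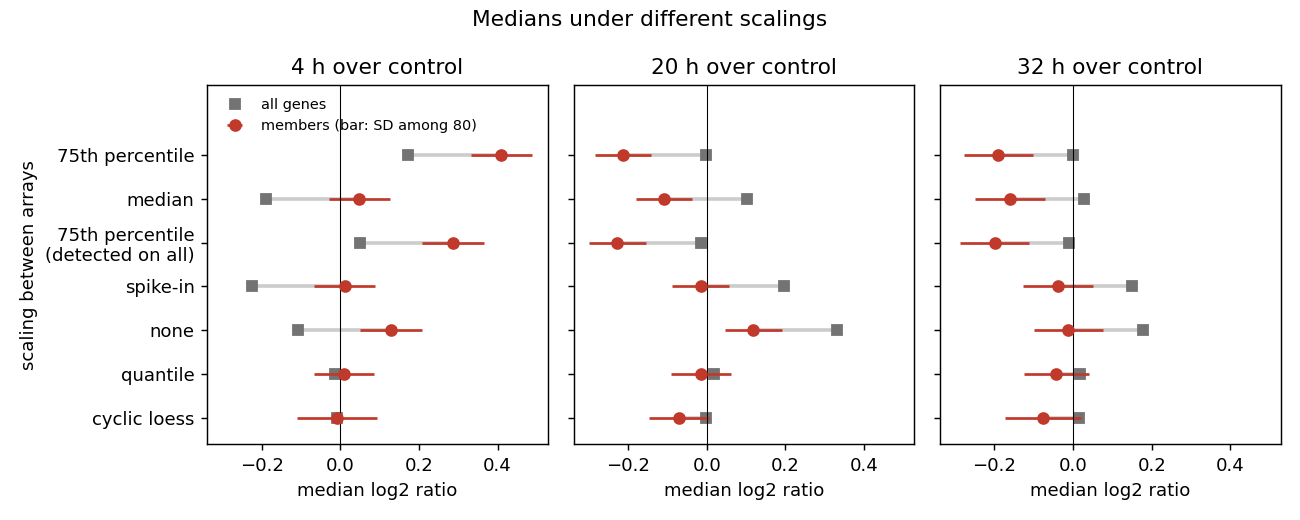
Median log2 ratio to the control (x axis) of the 80 members (red circles, bar: SD among the 80) and of all measured genes (grey squares) under 7 ways to scale the arrays (y axis), in 3 panels by time. At 4 h the members lie 0.24 above all genes in the upper 5 rows, and 0.023 and 0.00058 above them after quantile normalisation and cyclic loess. The members' own median runs from 0.41 to -0.0083.

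Differences between members are not moved by a constant shift of an array, so the genes at the edges of the band are given next, each with its signal in the order control, 4 h, 20 h and 32 h. *Rps27l*, a paralog of *Rps27* known as a target of p53, had signals of 5.60, 6.24, 5.50 and 5.50. It was the highest of the 80 at 4 h with a log2 ratio of 0.65, which lay 0.24 above the members' median, and 0.22 to 0.35 above it under 6 other scalings or background corrections. Of those, median, spike-in and no scaling shift an array by a constant and could not move this distance. *Rps27a*, whose product is a fusion of ubiquitin and the small-subunit protein, had 7.88, 8.44, 7.68 and 7.69, and a ratio of 0.56. *Rps25*, a small-subunit protein used in initiation at internal ribosome entry sites, had 6.25, 6.81, 6.03 and 6.03, and a ratio of 0.56. These were the 3 highest, but the spot error does not separate them from each other or from those next in order.

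*Rps28*, a small protein near the mRNA exit of the small subunit, had signals of 8.04, 8.56, 7.95 and 7.98, and a ratio of 0.53 at 4 h. *Rps15a* had 7.10, 7.63, 6.90 and 6.94, and so a ratio of 0.52. *Rps3*, which sits at the mRNA entry channel and also takes part in DNA repair, had 6.55, 7.08, 6.26 and 6.24. *Rpl5*, a carrier of 5S rRNA, had 6.21, 6.72, 5.97 and 5.86. *Rpl24* had 7.57, 8.08, 7.44 and 7.45. In each of these genes the 4 h array was the highest and the 20 h and 32 h arrays were below the control, the order common to all 80 members with this scaling. *Rpl15*, a large-subunit protein with a pyrimidine run at its start, closed this group with 6.86, 7.37, 6.72 and 6.68 and a ratio of 0.51.

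At the lower edge, *Rps15*, a small-subunit protein near the decoding centre, had signals of 6.28, 6.48, 5.85 and 5.86, the smallest ratio at 4 h (0.20). By its brightest probe, *Rps15* lay 0.21 below the members' median at 4 h. At 20 h and 32 h that probe lay 0.22 and 0.23 below the median, near the bottom of the band on each treated array. These ratios share the control array. The other probe of *Rps15* lay nearer to the members' median, with 0.34 at 4 h, -0.30 at 20 h and -0.36 at 32 h. The place of *Rps15* as the lowest member at 4 h therefore rests on its brightest probe. *Rpl3*, which lines the peptidyl transferase centre, had 6.98, 7.20, 6.84 and 6.79. Its ratio of 0.22 was 0.19 below the members' median at 4 h, while at 32 h it was at the median. *Rps18* had 6.83, 7.08, 6.55 and 6.46 and a ratio of 0.25.

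The genes next to these at the lower edge lay closer to the members' median at 4 h. *Rpl39l*, a paralog of *Rpl39*, had 5.62, 5.90, 5.44 and 5.57. *Rpl41*, the smallest ribosomal protein, had 8.54, 8.82, 8.28 and 8.43. *Rpl10a*, a protein of the L1 stalk, had 7.52, 7.84, 7.44 and 7.36. *Rpl10*, which joins the large subunit late in the cytoplasm, had 8.11, 8.43, 7.89 and 8.01. *Rpl37a* had 8.38, 8.70, 8.20 and 8.28. The ratios of these 5 genes ran from 0.28 to 0.33, and *Rpl12*, at 0.32, is given with the stalk below.

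The stalk recruits elongation factors to the large subunit. *Rplp0*, its base, had signals of 8.53, 8.88, 8.30 and 8.44. *Rplp1* had 7.89, 8.28, 7.55 and 7.57, and its partner *Rplp2* had 8.30, 8.68, 8.10 and 8.16. *Rpl12*, which anchors the stalk, had 7.52, 7.84, 7.18 and 7.17. The 4 genes had a median ratio of 0.37 at 4 h with the 75th percentile scaling and of -0.10 after cyclic loess, where 0 of the 4 were above the control.

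Several members have roles beyond the ribosome. *Rpl5* and *Rpl11* form a complex with 5S rRNA that binds Mdm2, and their ratios at 4 h were 0.52 and 0.36. *Rpl11* had signals of 7.44, 7.80, 7.28 and 7.30. Among 6 other members whose proteins bind Mdm2 (*Rpl23*, *Rpl26*, *Rps3*, *Rps7*, *Rps14* and *Rps27a*), the ratios at 4 h ran from 0.33 in *Rpl23* to 0.56 in *Rps27a*, with a median of 0.45 that was 0.042 to 0.33 under 7 other scalings. *Mdm2* itself had a log2 ratio of 1.61 and *Cdkn1a*, the p53-induced inhibitor of cyclin-dependent kinases, one of 3.57. Both come from a fixed list of 8 p53 pathway genes. At 4 h, 7 of these 8 were above the control (60.5% of all genes) and 5 were at least 2-fold higher (8.25%). *Sesn1* was lowest with -1.08, and the list had medians of 0.36 at 20 h and 0.38 at 32 h. The 17 members whose human orthologs are mutated in Diamond-Blackfan anaemia had a median of 0.43, from 0.35 in *Rpl27* to 0.53 in *Rps28*, and this median was -0.0069 after cyclic loess. *Rps19*, the gene most often mutated in that disease, had 6.73, 7.21, 6.46 and 6.41. *Rps6*, the substrate of the S6 kinases, had 7.64, 8.05, 7.38 and 7.43, at the median of the members. The groups of members named here are parts of the 80, so they lay inside its band by construction.

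Paralogs differ from their partners in tissue use. *Rpl3l*, known from muscle, and *Rpl10l*, known from testis, were not well above background on any array and gave no ratio. *Rpl36al* had 5.48, 5.97, 5.26 and 5.33, a ratio of 0.49 at 4 h, and its partner *Rpl36a* had 6.65, 7.03, 6.33 and 6.36, a ratio of 0.38. *Rpl39l* gave 0.28 and *Rpl39* 0.44 at 4 h. *Rps27l* gave 0.65, whereas *Rps27* gave 0.38 from signals of 7.88, 8.25, 7.64 and 7.69. Of these 3 pairs the *Rps27* pair was farthest apart, and in the *Rpl39* pair the order was turned. Each ratio carries a spot error of 0.20, and the 3 measured paralogs have 1 probe each. The *Rpl39* probes ran from 0.32 to 0.45 at 4 h, so the order within and among the pairs is uncertain. The probes that separate the *Rps27* pair are shown by their first 30 of 60 bases, 5′ to 3′.
Rps27: gcccctgattgaagatgagtgggaaccttc
Rps27l: aaagccaggctcacagaaggctgttcattt

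The array annotation (mm9) places the *Rps27l* probe at chr9:66795486-66797176, across an intron, and the brightest *Rps27* probe at chr9:114891509-114891568, although RefSeq has *Rps27* on chromosome 3. Of 186 member probes with a position, 11 were placed on another chromosome than the RefSeq gene, and *Rps27* and *Rps29* were the 2 genes whose brightest probe was among them. Ribosomal protein genes have many processed pseudogenes with near-identical sequence, and the array cannot assign signal between such copies. The 6 gene names with a pseudogene suffix had a median of 0.42 at 4 h, beside 0.41 in the members.

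At 20 h, the 80 members lay slightly below the control with the 75th percentile scaling, with a median of -0.21 that was 0.12 with no scaling. All 80 were below the control, against 50.1% of all 15782 measured genes, whose median was 0.00, and none was above it, against 49.9%. The standard deviation was 0.072 among the members and 0.39 among all genes. None was 2-fold lower (2.18% of all genes) or 2-fold higher (0.729%), and none passed 1.5-fold in either direction (5.61% lower and 3.42% higher). The spot error exceeded the size of the ratio in 35 of the 80. *Rps15* was lowest with -0.43, followed by *Rpl37* with -0.37, *Rpl21* with -0.36 and *Rpl12* and *Rplp1* with -0.34 each. *Rpl7a* was nearest to the control with -0.045, followed by *Rpl10a* (-0.081), *Rps28* (-0.086), *Rps27l* (-0.099) and *Rpl29* (-0.10). The members were 0.21 below the median of all genes, a distance that shrank to 0.068 after cyclic loess and to 0.033 after quantile normalisation.

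At 32 h, the median of the members was -0.19 with the 75th percentile scaling and -0.012 with no scaling, and all 80 were below the control with the former, against 50% of 15451 genes, none being above it (50% of all genes). The standard deviation was 0.089 among members and 0.39 among all genes. No member passed 2-fold lower (1.62% of all genes) or higher (1.08%), nor 1.5-fold (5.18% lower and 4.13% higher), and the spot error exceeded the ratio in 46 of the 80. *Rpl21*, a large-subunit protein, was lowest: its signals were 6.61, 7.00, 6.25 and 6.16, and its ratio was -0.44. *Rps15* had -0.42, *Rpl17* -0.37, *Rps18* -0.36 and *Rpl12* -0.35. *Rpl7a*, with signals of 6.61, 7.06, 6.56 and 6.59, again lay nearest to the control with -0.016. It was 0.17 above the members' median at both 20 h and 32 h, by its brightest probe. Among its 4 measured probes the ratio had a range of 0.21 at 20 h and 0.25 at 32 h. The 2 ratios of *Rpl7a* also share the control array. *Rpl6* had -0.027, *Rpl39l* -0.050, *Rps28* -0.064 and *Rpl29* -0.071. The distance of the members below all genes was 0.19, and 0.060 after quantile normalisation.

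The study took the 20 h and 32 h arrays to look for circadian change. The members showed little difference between them. The median log2 ratio of 20 h over 32 h was -0.013, and 31 members were higher and 49 lower at 20 h, against 51.5% and 48.5% of 15643 genes. The direction turned with median scaling, where 67 of the 80 were higher at 20 h. No ratio exceeded its spot error, 69 of the 80 were within 0.1 of 0, and none passed 2-fold (0.16% of all genes higher and 0.454% lower at 20 h) or 1.5-fold (0.684% and 1.73%). *Rpl37* had the lowest ratio, -0.20, from signals of 8.21, 8.58, 7.85 and 8.04. It was followed by *Rpl6* (-0.18, from 7.75, 8.11, 7.55 and 7.73), *Rpl4* and *Rpl41* (-0.15 each) and *Rplp0* (-0.14). *Rpl17*, from 6.53, 6.91, 6.30 and 6.16, had the highest, 0.14, and *Rpl5* followed with 0.11. *Rps18*, *Rpl30* and *Rpl22* lay between 0.084 and 0.087.

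The members' probes gave a further view, since 57 genes had 2 or more probes above background on all arrays. The range of the ratio among probes of a gene had a median of 0.066 at 4 h, 0.097 at 20 h and 0.086 at 32 h. At 4 h it was under 0.1 in 35 of the 57 and above 0.2 in 7. Of 182 probes measured on all arrays, 7 lay outside the range of the brightest probes at 4 h. *Rpl22* and *Rpl15* each had a dimmer probe below the control at 4 h while the brightest was above it. The *Rpl22* probe that starts at base 1882 of the transcript gave -0.60 and the one at base 385 gave 0.43. In *Rpl15* the probe at base 1530 gave -0.38 and the one at base 461 gave 0.51. The first 30 bases of these probes show that they are different stretches of the transcripts, at mm9 chr4:151708012-151708071 and chr4:151706515-151706574 for *Rpl22* and at chr14:19100588-19100647 and chr14:19101657-19101716 for *Rpl15*.
Rpl22 at base 1882: gctgtaaacaacattaaccctgggttgatt
Rpl22 at base 385: ggaggaagacgaggattaggacacattggt
Rpl15 at base 1530: gacatttcacaaaggccatacttaaccaca
Rpl15 at base 461: atcagaagaaatcctgacacccagtggatc

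In both genes the dimmer probe lies further along the transcript. The 20 h and 32 h ratios of the dimmer *Rpl22* probe were -0.63 and -0.46, and those of the dimmer *Rpl15* probe were -0.44 and -0.32, so that both were below the control on every treated array. At 20 h and 32 h no gene had probes of opposite direction. The probes outside the range included 1 each of *Rpl30* (0.94), *Rps25* (0.89) and *Rps15a* (0.87) above it and 1 of *Rpl3* (0.13) below it. On the control array the *Rpl30*, *Rps25* and *Rps15a* probes had signals of 1.54, -1.77 and -3.03. The brightest probes of the measured members had at least 5.48 there. The *Rpl3* value lies beside the 0.22 of its brightest probe, so both of its probes were at the lower edge.

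**Figure D4:**
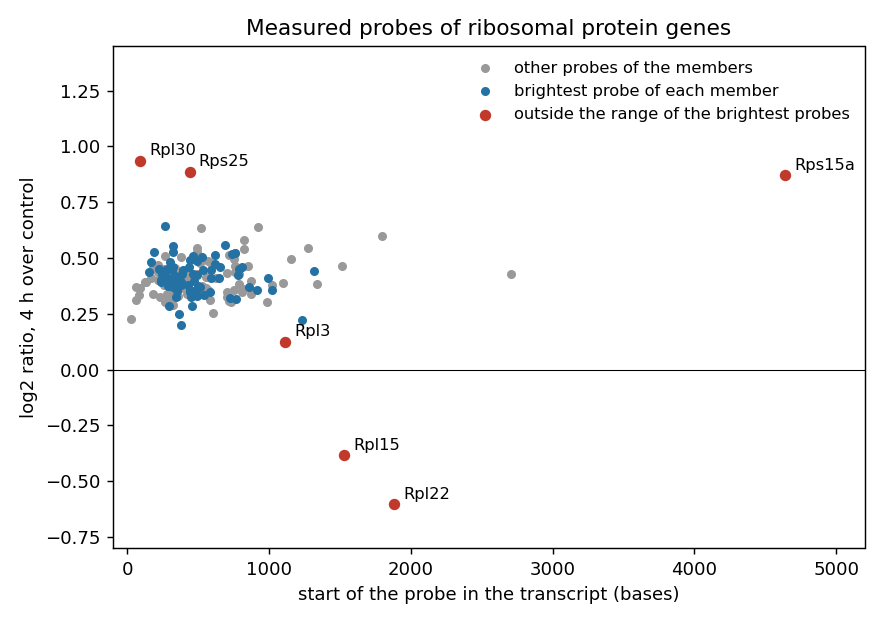
Log2 ratio of 4 h over control with the 75th percentile scaling (y axis) of 171 measured probes of ribosomal protein genes by the start of the probe in the transcript in bases (x axis). Blue points are the brightest probe of each gene drawn, grey points its other probes, and the 6 red points lie outside the range of the blue ones. The red points of *Rpl22* and *Rpl15* are below 0, and under cyclic loess the blue points centre on -0.0083.

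Genes of the same pathway were read from fixed lists. The 20 other genes with TOP mRNAs, mostly translation factors, had a median ratio of 0.48 at 4 h with 20 of 20 above the control (60.5% of all genes), and 14 to 20 of 20 above it under 7 other scalings. *Eif4b*, a helicase cofactor in initiation, was highest with 1.02, and *Npm1*, a nucleolar chaperone, had 0.92. *Gnb2l1*, which encodes the ribosome-bound scaffold Rack1, had 0.42 and *Fau* 0.39, close to the members. At 20 h and 32 h the list had medians of -0.16 and -0.21 (0.17 and -0.033 with no scaling). Its standard deviation at 4 h was 0.20, beside 0.078 for the members.

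The regulators were less uniform than the ribosomal proteins. Of 14 regulators of TOP mRNAs or of ribosomal protein transcription, 10 were above and 4 below the control at 4 h (60.5% and 39.5% of all genes), and 7 to 10 were above under the other scalings. *Mtor*, the kinase of the pathway, had a ratio of -0.67 and *Larp1*, the repressor of TOP mRNAs, one of 0.65. *Larp4*, which binds poly(A) tails, had 1.27. *Myc*, an activator of ribosome production, had 0.43 at 4 h, -0.63 at 20 h and -0.72 at 32 h. Of 10 genes with names that start with *Rps6k*, 7 were measured at 4 h, from -0.74 in *Rps6ka4* to 0.91 in *Rps6kb1*.

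Ribosome biogenesis factors, which process rRNA and assemble the subunits, differed more from the control than the members. At 4 h, 34 of 36 were above it with a median of 0.74, and 13 were at least 2-fold higher, against 60.5% and 8.25% of all genes. The median was 0.34 to 0.67 under 7 other scalings, with 30 to 33 of 36 above. *Riok2*, a kinase of late small-subunit maturation, had 1.85, *Gnl3* (nucleostemin) 1.46, and *Sbds*, which frees the large subunit for translation, 1.41. *Taf1b*, a subunit of the polymerase I selectivity factor, was lowest with -0.76. At 20 h the list had a median of -0.36, which was -0.029 with no scaling. At 32 h the median was -0.45, and -0.46 to -0.27 under the other scalings. *Dkc1*, the pseudouridine synthase of box H/ACA particles, had 0.86, -0.82 and -1.01 at the 3 times. Like the members, the list was higher than the control at 4 h and lower later with the 75th percentile scaling. These comparisons share the control array, and the difference between the lists was not tested.

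The 76 mitochondrial ribosomal protein genes, whose products form the separate ribosome of mitochondria, did not follow the cytosolic set at 4 h. Their median was -0.24 (-0.63 to -0.36 under 7 other scalings), with 24 above and 52 below the control, against 60.5% and 39.5% of all genes. Their interquartile range was 0.74, beside 0.094 in the cytosolic set. The difference from the cytosolic set was not tested, with 1 array per condition. The values ran from -2.47 in *Mrpl55* to 0.84 in *Mrps30*. At 20 h and 32 h their medians were -0.0052 and -0.063 with the 75th percentile scaling and 0.33 and 0.11 with no scaling.

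**Figure D5:**
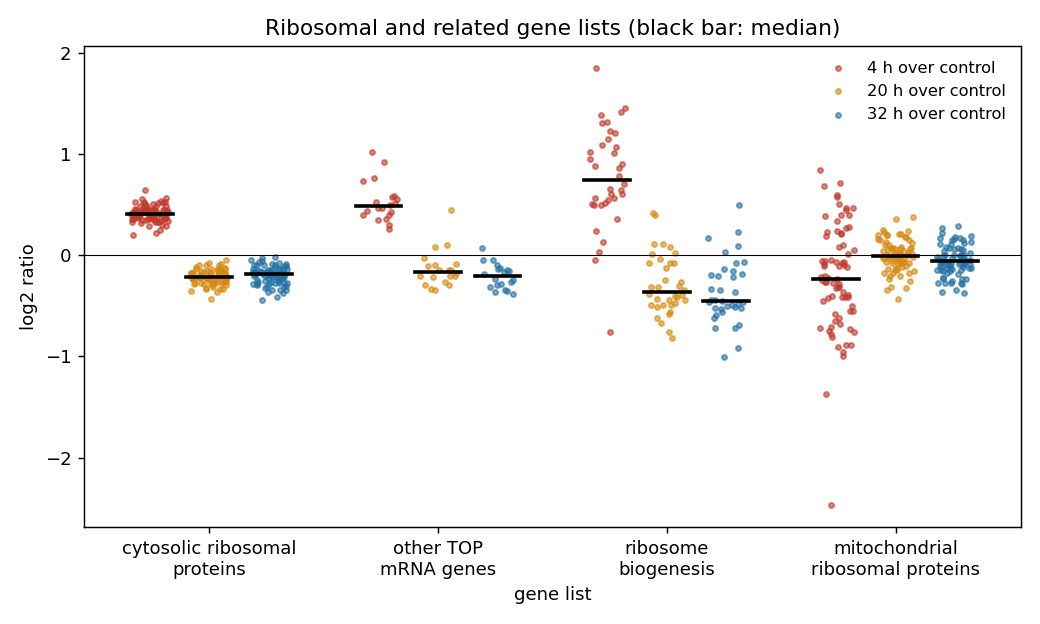
Log2 ratio to the control with the 75th percentile scaling (y axis) of each gene in 4 lists (x axis), at 4 h (red), 20 h (orange) and 32 h (blue), with the median as a black bar. The cytosolic ribosomal proteins form the narrowest set at 4 h, with medians of 0.41 for them, 0.48 for other TOP mRNA genes, 0.74 for ribosome biogenesis and -0.24 for mitochondrial ribosomal proteins. After cyclic loess the first of these is -0.0083, while biogenesis stays above 0 and the mitochondrial list below it under each of 7 other scalings.

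Beside the 82 members, 3 similar names fell outside the rule because a digit follows the letter. *Rpl22l1*, a paralog of *Rpl22*, had signals of 5.50, 5.06, 5.28 and 5.33. Its ratio at 4 h was -0.44, below the control where each of the 80 members was above it with this scaling, and it was not above the control under the other scalings. *Rpl7l1* had a ratio of 0.15, and *Rps4y2* gave no ratio.

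Members not described above lay inside the ranges given. In the large subunit these included *Rpl8*, *Rpl9*, *Rpl7*, *Rpl13*, *Rpl13a*, *Rpl14*, *Rpl18*, *Rpl19*, *Rpl23a*, *Rpl27a*, *Rpl28*, *Rpl31*, *Rpl32*, *Rpl34*, *Rpl35*, *Rpl35a*, *Rpl36* and *Rpl38*. In the small subunit they included *Rps2*, *Rps3a*, *Rps4x*, *Rps9*, *Rps10*, *Rps12*, *Rps13*, *Rps16*, *Rps20*, *Rps21*, *Rps23*, *Rps24*, *Rps26* and *Rpsa*. Their ratios at 4 h lay, by construction, between the 0.20 of *Rps15* and the 0.65 of *Rps27l*, the lowest and highest members.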

How the data were processed

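Total RNA of 4 cultures was labelled with Cy3 and hybridised to 1 one-colour Agilent mouse array each, 4 arrays on 1 slide. The deposited scanner files hold spot intensity values that, per the file headers and the labels, Agilent Feature Extraction 10.7.3.1 had corrected for background. A deposited table of scaled signal values made by the authors from the same arrays served as an alternative. Control spots and spots flagged as outliers (125 to 161 of the latter an array) were left out. Replicate spots were averaged as log2 values, each array's 75th percentile over 39429 probes was subtracted, and the brightest probe by mean over the arrays stood for a gene. A ratio needed at least 50% of the spots well above background on both arrays.

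With 1 array per condition no test or p-value was computed. The number of arrays limits the precision, and the spot error (about 10.0% a spot) leaves out biological and hybridisation variation. The members and lists were chosen with earlier results of these data known. Named were the 10 highest and 10 lowest members at 4 h, the 5 at each end of the other comparisons, and members of the lists, with lists of over 10 genes given by counts and ranges. Python 3.11.15, pandas 2.3.3, R 4.3.3 and limma 3.58.1 (normexp with offset 50, and cyclic loess) were used. The steps were tested on simulated data with 200 changed probes. The alternatives were 5 other scalings, normexp, the authors' table, other detection rules, other probe rules, a wider name rule and folds of 1.5 and 1.2, with cyclic loess and spike-in scaling without 1 probe added after seeing the data. Coordinates of probes are those of the array annotation (mm9), and promoters come from RefSeq (GRCm38.p6). Gene names are those of the array design, and 81 of the 82 members matched RefSeq. No promoter sequence was read for *Rpl17*, *Rpl21*, *Rpl23a*, *Rpl29*, *Rpl3*, *Rpl30*, *Rpl32*, *Rpl36*, *Rpl7*, *Rpl8*, *Rplp1*, *Rps14*, *Rps20*, *Rps27a*, *Rps29* and *Rps3a*. Some genes that the rule names, and their probes, are not reported here, although counts and medians include them.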

Additional observations from a re-analysis of the deposited data

Results flagged for a closer look

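The ribosomal protein genes lay on opposite sides of the control at different hours after the same pulse. Their median log2 ratio was 0.41 at 4 h, -0.21 at 20 h and -0.19 at 32 h with the 75th percentile scaling, and 80 of 80 measured members were above the control at 4 h and below it at both later times. The difference between the hours was not tested, since each hour is 1 array, and the 3 ratios share the control array. The direction at 4 h turned to -0.0083 after cyclic loess and that at 20 h to 0.12 with no scaling.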

How the results depend on the processing

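No paired analysis was possible because each condition had 1 array. Of 464 recomputed summary values, 395 stayed within the spot error or within 1.5 times the count, 57 moved and 12 changed sign. The spot error is about as large as the members' medians at 20 h and 32 h. Staying within it therefore does not show that those medians were stable. With quantile normalisation the 20 h median went from -0.21 to -0.014, which is within it. With no scaling the 32 h median went from -0.19 to -0.012, also within it. Some of the 395 could not move, since distances and standard deviations are unchanged by scalings that shift an array by a constant. Of the values of 31 named members, 1736 stayed within the spot error and 246 moved. A change of sign was not counted for single members, because it was looked for only in those at least 2-fold from the control, and none was.

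At 4 h, the members' median was 0.049 with median scaling, 0.0097 with quantile normalisation, 0.011 with spike-in scaling (0.013 without 1 probe), 0.13 with no scaling and -0.0083 with cyclic loess. Its distance from all genes was 0.023 with quantile normalisation and 0.00058 with cyclic loess. Members above the control numbered 41 with quantile normalisation, 46 with either spike-in scaling and 37 with cyclic loess. Members below numbered 21 with median scaling, 38 with quantile normalisation, 34 with either spike-in scaling, 3 with no scaling, 43 with cyclic loess, 1 by the median over probes, 3 by the dimmest probe and 1 with the wider name rule. At folds of 1.5 and 1.2, 1 and 77 members were higher, against 21.1% and 43.9% of all genes. The standard deviation among members was 0.22 by the dimmest probe and 0.12 with the wider name rule.

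At 20 h, the median was 0.12 with no scaling. Members above numbered 6 with median scaling, 28 with quantile normalisation, 31 with spike-in scaling (1 without 1 probe), 74 with no scaling and 8 with cyclic loess. Members below numbered 49 with quantile normalisation and with spike-in scaling, and 6 with no scaling. With no detection filter 1 member was 2-fold lower, against 5.80% of all genes. It was *Rpl3l*, whose signal went from -6.18 on the control array to -7.38 at 20 h. The usual filter removes this gene, so its fold is a ratio of undetected signals. At a fold of 1.2 with the usual filter, 20 members were lower, against 18.5% of all genes. The standard deviation was 0.13 with no detection filter and 0.12 by the dimmest probe.

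At 32 h, members above numbered 2 with median scaling, 21 with quantile normalisation, 22 with spike-in scaling, 34 with no scaling, 1 with no detection filter, 1 with the positive and significant flag and 13 with cyclic loess. The member above with no detection filter was *Rpl10l*, undetected on both arrays. With no scaling 46 were below. At a fold of 1.2 with the 75th percentile scaling, 21 members were lower, against 18.5% of all genes.

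For 20 h over 32 h, the median was 0.063 with median scaling, 0.027 with quantile normalisation, 0.033 with spike-in scaling (0.062 without 1 probe), 0.14 with no scaling and 0.0049 with cyclic loess. Its distance from all genes was 0.022 with quantile normalisation, 0.016 with normexp, 0.071 with no detection filter and 0.0078 with cyclic loess. Members above numbered 67 with median scaling, 56 with quantile normalisation, 58 with spike-in scaling (67 without 1 probe) and 77 with no scaling. Members below numbered 13, 23, 22 (13) and 3 in the same order. The standard deviation was 0.11 with no detection filter.

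The scalings that shift whole arrays differ from each other only by a constant per array, so they moved medians and counts but no distance or standard deviation. The other causes were not tested. Members and all other probes have 1 array per condition, so spread between cultures is unknown.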
